A study of Mus musculus with 36 samples.

Results

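The genes described here are 10 immune checkpoint and regulatory T cell genes, *Foxp3*, *Il2ra*, *Fgl2*, *Ctla4*, *Icos*, *Pdcd1*, *Lag3*, *Havcr2*, *Cd274* and *Pdcd1lg2*. They were chosen by name, with earlier results of these data known. They were read in all 36 tumors as 10 of 12394 genes, each from its brightest probe set. The tumors were grown from the mouse mammary tumor lines 67NR and 66cl4, injected into a mammary fat pad. The hosts were BALB/c mice, to which the lines are syngeneic, or NSG mice, written NOD/SCID/Ifrg2r -/- by the study. In each line and host there were 3 control tumors and 6 labelled BPTF KD, in which *Bptf*, the gene of the BPTF subunit of the chromatin remodeler NURF, was targeted by retroviral short-hairpin RNA. The mice were females 6 to 8 weeks old. 67NR tumors were taken at day 21 and 66cl4 tumors at day 28, and 66cl4 was injected at a lower cell number, so line, day and cell number cannot be told apart. The knockdown lines carried 1 of a pair of hairpins, but the labels do not say which tumor had which, and the study's control lines carried control hairpins. NSG mice lack T, B and NK cells and keep macrophages and other myeloid cells. The hosts also differ in strain background, and the labels give no array date or batch. Strain, immune cells and any batch therefore cannot be told apart between hosts. Total RNA of whole tumor tissue was measured on Affymetrix arrays, and every value below is a log2 RMA value or a difference of such values, so that 1 unit is a doubling. In bulk tissue, fewer cells of a type and less RNA per cell cannot be told apart, and p-values measure the spread between tumors.

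Immune checkpoints are receptor and ligand pairs that hold T cells back after activation. CTLA-4 competes with CD28 for CD80 and CD86, PD-1 (*Pdcd1*) binds PD-L1 (*Cd274*) and PD-L2 (*Pdcd1lg2*), LAG-3 binds MHC class II and FGL1, and TIM-3 (*Havcr2*) has galectin-9 and CEACAM1 among its ligands and is also found on macrophages and dendritic cells. ICOS is a costimulatory receptor induced on activated T cells. FOXP3 is the lineage transcription factor of regulatory T cells, which carry the high-affinity IL-2 receptor chain CD25 (*Il2ra*), and FGL2 is made by macrophages and by regulatory T cells. Interferon gamma induces PD-L1 and PD-L2 in tumor and myeloid cells.

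The promoters of the 5 members that carried the comparisons below are shown, since the ligands are interferon gamma targets and the others differed between groups. Promoters are from RefSeq (GRCm38.p6), as the 250 bases before the transcript start on the gene's strand. The table held windows for 8 of the 10 members, with 9 windows among them. The Cd274 window is chr19:29367188-29367437 (plus strand), the Pdcd1lg2 window chr19:29410669-29410918 (plus), the Pdcd1 window chr1:94052554-94052803 (minus), the Fgl2 window chr5:21372423-21372672 (plus) and the Havcr2 window chr11:46454681-46454930 (plus). Capitals mark matches to the 3 motifs described after the sequences.
Cd274 promoter: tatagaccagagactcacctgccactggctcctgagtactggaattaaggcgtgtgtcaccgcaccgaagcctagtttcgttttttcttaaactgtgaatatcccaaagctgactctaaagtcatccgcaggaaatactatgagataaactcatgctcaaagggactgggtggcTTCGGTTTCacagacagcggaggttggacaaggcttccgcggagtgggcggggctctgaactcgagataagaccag
Pdcd1lg2 promoter: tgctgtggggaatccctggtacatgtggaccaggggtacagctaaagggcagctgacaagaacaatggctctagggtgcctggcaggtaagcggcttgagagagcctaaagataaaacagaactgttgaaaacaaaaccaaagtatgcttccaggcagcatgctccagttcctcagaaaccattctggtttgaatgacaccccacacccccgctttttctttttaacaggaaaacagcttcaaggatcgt
Pdcd1 promoter: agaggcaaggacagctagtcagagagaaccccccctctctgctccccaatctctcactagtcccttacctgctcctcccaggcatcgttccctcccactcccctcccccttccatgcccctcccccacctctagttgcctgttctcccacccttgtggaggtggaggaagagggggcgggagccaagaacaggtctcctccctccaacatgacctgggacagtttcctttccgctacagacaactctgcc
Fgl2 promoter: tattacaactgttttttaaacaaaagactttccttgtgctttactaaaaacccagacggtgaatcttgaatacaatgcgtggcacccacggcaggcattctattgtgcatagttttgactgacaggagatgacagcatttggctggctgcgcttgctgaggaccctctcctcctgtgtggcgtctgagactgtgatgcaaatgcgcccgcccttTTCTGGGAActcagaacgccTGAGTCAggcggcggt
Havcr2 promoter: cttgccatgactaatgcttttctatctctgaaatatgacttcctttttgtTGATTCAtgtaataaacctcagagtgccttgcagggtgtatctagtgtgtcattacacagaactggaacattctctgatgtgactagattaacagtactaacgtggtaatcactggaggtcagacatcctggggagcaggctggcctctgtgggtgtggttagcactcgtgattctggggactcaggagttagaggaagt
Both strands were searched for a gamma-activated site, TTCNNNGAA, for an interferon-stimulated response element core, GAAANNGAA, and for an AP-1 site, TGANTCA. Each motif was in windows of 2 of the members, against 7.02%, 7.13% and 6.75% of all 32851 windows. The Cd274 window held the response element core, read on the minus strand, 76 bases before the start, and the Ctla4 window, not shown, held it at 166 bases. The Fgl2 window held a gamma-activated site at 36 bases and an AP-1 site at 16 bases before the start, Havcr2 an AP-1 site at 200 bases, and a Foxp3 window a gamma-activated site at 139 bases. None of the 3 motifs was in the Pdcd1 or Pdcd1lg2 window, which says only that those letters were not in these bases. *Cd274* (chr19:29362107-29388095) and *Pdcd1lg2* (chr19:29410919-29472927) are neighbours, 22.8 kb apart, and *Ctla4* (chr1:60909025-60915832) and *Icos* (chr1:60960773-61000322) also lie close together.

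Across the series, array medians lay between 7.03 and 7.21 and array pairs correlated at 0.918 to 0.9961. *Bptf* itself was 8.68 to 9.12 in the 66cl4 BALB/c tumors labelled BPTF KD against 9.50 to 10.61 in their controls, a fall of 1.08 ± 0.20 (SE; limma adjusted p = 0.0628), but in 67NR BALB/c the labelled BPTF KD tumors spanned 8.34 to 10.68 and the controls 9.73 to 10.31, with a difference of -0.06 ± 0.45 (adjusted p = 0.985). In NSG mice the differences were -0.27 in 67NR and -0.33 in 66cl4, with adjusted p of 0.644 and 0.584. The 3 dimmer *Bptf* probe sets, none of which passed, differed by -0.62 to 0.03 in 67NR BALB/c, by -1.84 to -0.14 in 66cl4 BALB/c, by -0.78 to 0.06 in 67NR NSG and by -0.38 to 0.30 in 66cl4 NSG, where the last had all 6 BPTF KD tumors above all controls (limma adjusted p = 0.571). In 67NR BALB/c the targeted gene thus did not bear out the label, and BPTF KD stands below for tumors labelled so, each direction resting on the labels. The T cell gene *Cd3g* was 4.12 to 4.77 in all NSG tumors and 6.61 to 12.8 in BALB/c, and the NK cell gene *Ncr1* was 3.97 to 5.08 and 6.29 to 10.36. Of the epithelial keratins that a mammary tumor could hold, *Krt8* was 12.64 to 13.48 in 66cl4 tumors and 5.65 to 9.22 in 67NR tumors. The 7 measured epithelium genes did not all follow it. Passing as lower in 67NR were 2 among BALB/c controls, 2 among BALB/c BPTF KD tumors and 3 among NSG controls. Among NSG BPTF KD tumors 2 were lower and 2 higher. The shares of all genes called were 14.0%, 19.9%, 34.1% and 45.3%.

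The members fell into 2 kinds by how far they varied over the 36 tumors. *Foxp3* spanned only 4.18 to 4.99, a range of 0.81 with an SD of 0.185, and 20.1% of genes had a lower SD. *Il2ra* spanned 4.63 to 5.88, and 40.6% of genes varied less. In contrast *Fgl2* spanned 6.38 to 12.47, *Pdcd1* 3.70 to 9.12, *Cd274* 5.25 to 11.09 and *Pdcd1lg2* 4.24 to 9.66, and at least 97.1% of genes varied less than each of these. *Ctla4*, *Icos* and *Havcr2* had ranges of 3.79, 4.55 and 4.38, and *Lag3* one of 2.78. By mean level, 4 members (*Foxp3*, *Il2ra*, *Pdcd1* and *Pdcd1lg2*) were among the dimmest 25% of genes.

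**Figure D1:**
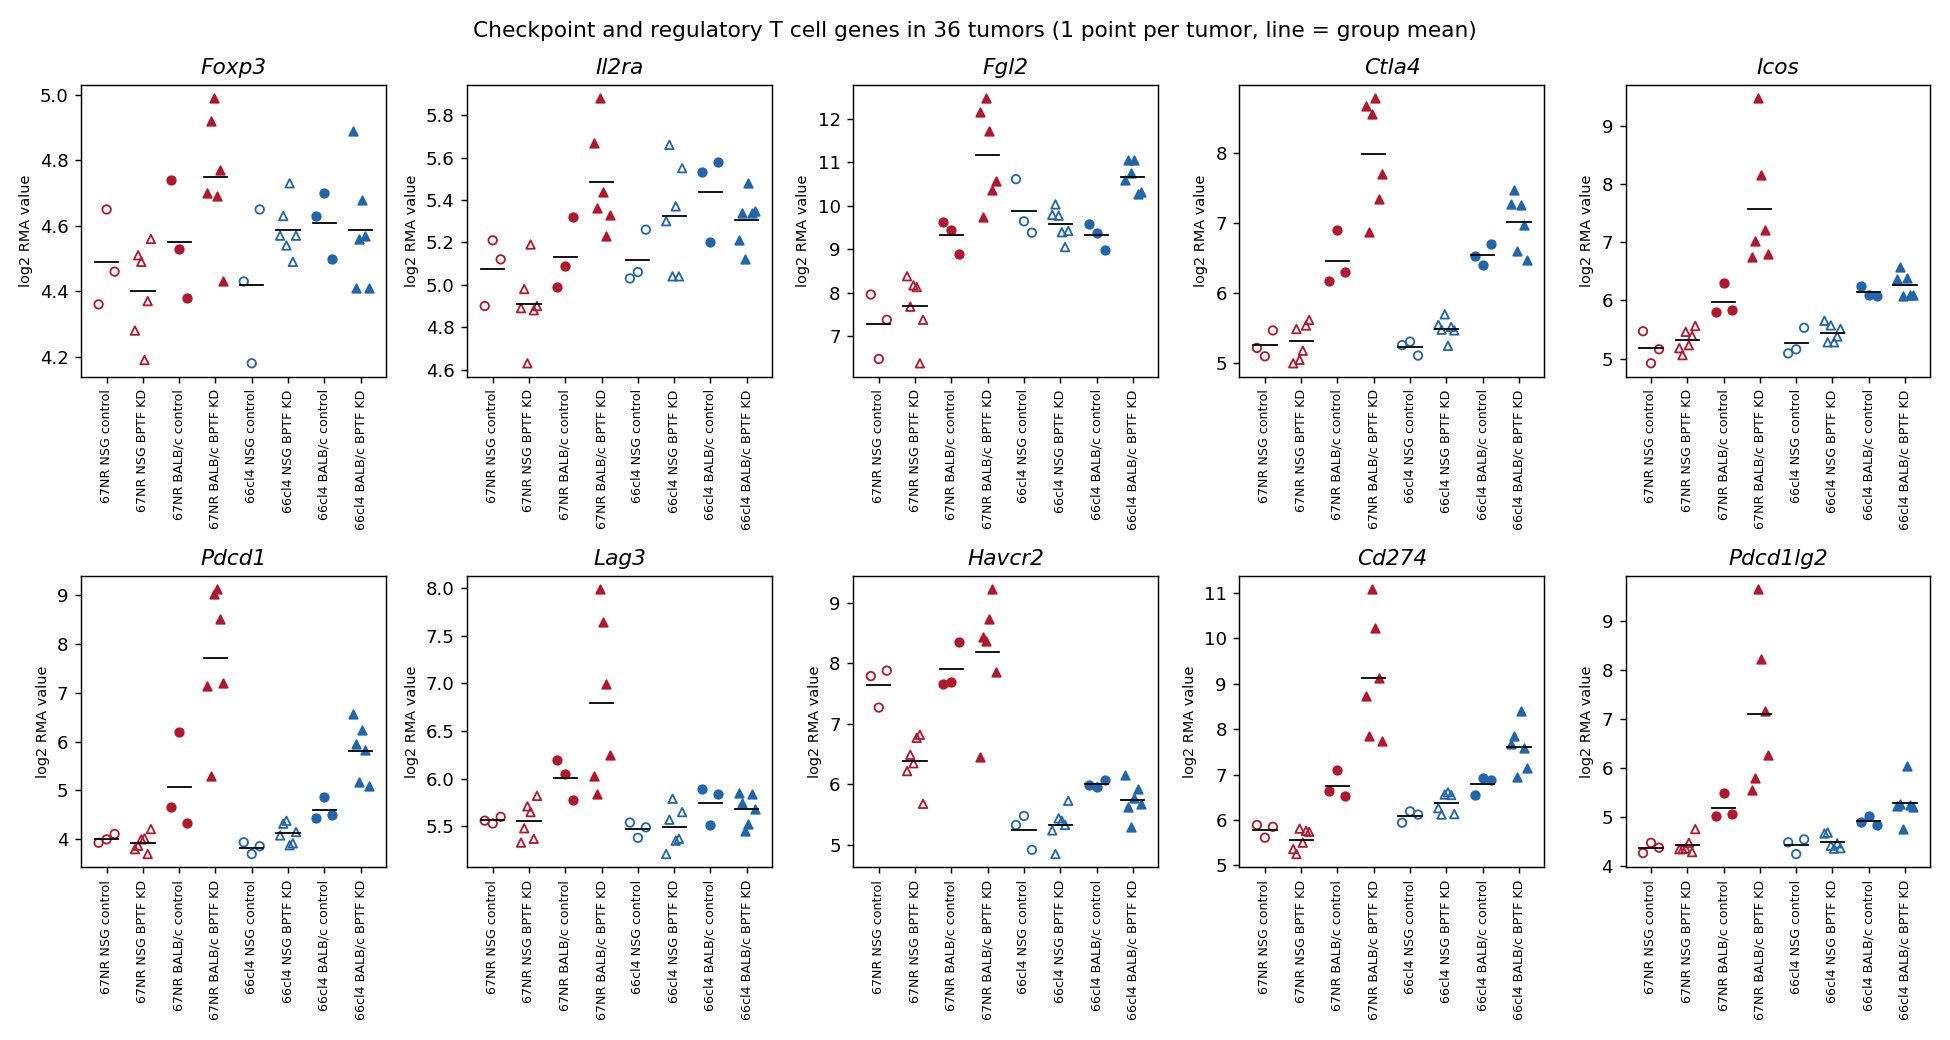
Log2 RMA value (y axes) of the 10 genes in the 8 groups (x axes), with 1 point per tumor and a black line at each group mean; red is 67NR, blue 66cl4, open symbols NSG, filled symbols BALB/c, circles control and triangles BPTF KD. The highest value of each of the 10 genes was in a 67NR BPTF KD tumor of a BALB/c mouse, and Foxp3 spanned 0.81 over all tumors.

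The first comparison asked whether these genes differed between BPTF KD and control tumors in mice with an intact immune system. In 67NR tumors of BALB/c mice, both PD-1 ligands were above all controls in every BPTF KD tumor, PD-1 itself showed the largest mean difference of the members, and the spread among BPTF KD tumors was wide. No member and no gene of the array passed the adjusted test, so these are values and not calls.

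*Cd274*, the gene of PD-L1, measured 6.63, 7.10 and 6.52 in the 67NR BALB/c control tumors. In the 6 BPTF KD tumors it ranged from 7.74 through a median of 8.93 to 11.09. Every BPTF KD tumor was above every control, the highest being replicate 3. The mean difference was 2.38 ± 0.70 (SE), or 5.19-fold (limma adjusted p = 0.609).

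*Pdcd1lg2*, the gene of PD-L2, measured 5.01, 5.49 and 5.05 in these controls. The BPTF KD tumors ranged from 5.55 through 6.71 to 9.66. The groups did not overlap, but the lowest BPTF KD tumor was only just above the highest control. The difference was 1.93 ± 0.83 (limma adjusted p = 0.637).

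For *Pdcd1*, the PD-1 receptor gene, the controls were at 4.67, 6.20 and 4.34. BPTF KD tumors ranged from 5.29 through 7.85 to 9.12. Here 5 of the 6 BPTF KD tumors were above every control, and replicate 2 lay below control replicate 2. The difference was 2.64 ± 0.83, or 6.22-fold (limma adjusted p = 0.609).

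*Ctla4* measured 6.18, 6.90 and 6.30 in controls and 6.88 to 8.79, with a median of 8.14, in BPTF KD tumors. Replicate 2 again fell inside the control range, and the other 5 were above it. *Icos* measured 5.80, 6.29 and 5.84 in controls and 6.75 to 9.47, with a median of 7.11, in BPTF KD tumors, with no overlap. The differences were 1.54 ± 0.44 for *Ctla4* and 1.59 ± 0.56 for *Icos* (limma adjusted p = 0.609 for both). A dimmer *Icos* probe set gave 1.10 ± 0.54.

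*Fgl2*, which encodes a fibrinogen-like protein that can be secreted by regulatory T cells, measured 9.62, 9.45 and 8.90 in controls. Its BPTF KD tumors ranged from 9.75 through 11.14 to 12.47. All 6 were above all 3 controls, by 1.84 ± 0.59 on average (limma adjusted p = 0.609), and a second probe set gave 1.82 ± 0.65.

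The remaining 4 members overlapped between the groups. *Lag3* was 5.78 to 6.20 in controls and 5.84 to 7.99 in BPTF KD tumors, a difference of 0.78 ± 0.48. *Havcr2* was 7.66 to 8.35 in controls and 6.46 to 9.23 in BPTF KD tumors, whose lowest tumor was below every control, and the difference was 0.28 ± 0.52. *Il2ra* was 4.99 to 5.32 and 5.23 to 5.88, with a difference of 0.35 ± 0.17. *Foxp3* was the flattest of the members, at 4.74, 4.53 and 4.38 in controls and 4.43 to 4.99 in BPTF KD tumors, a difference of 0.20 ± 0.15 (limma adjusted p = 0.757).

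Counted over the list, 4 of the 10 members had every 67NR BALB/c BPTF KD tumor above every control (*Cd274*, *Pdcd1lg2*, *Icos* and *Fgl2*), against 3.13% of all genes. At an unadjusted limma p under 0.05 there were 6 members, against 7.75% of all genes. After adjustment there were 0 members and 0% of genes, and the methods' t-test also called 0. With all 36 tumors in 1 fit, or with array weights, *Cd274*, *Pdcd1*, *Ctla4*, *Icos*, *Fgl2* and *Pdcd1lg2* passed, with adjusted p from 0.0015 to 0.0294. The median difference of the members was 1.56, that of all genes -0.003, and all 10 differences were above 0.

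The 6 BPTF KD tumors of 67NR in BALB/c were not alike. Replicate 3 was the highest for 7 of the members (*Foxp3*, *Il2ra*, *Fgl2*, *Icos*, *Lag3*, *Cd274* and *Pdcd1lg2*), replicate 4 for *Ctla4* and *Pdcd1*, and replicate 5 for *Havcr2*. Within this group the range was 4.11 for *Pdcd1lg2*, 3.83 for *Pdcd1* and 3.35 for *Cd274*, and 0.56 for *Foxp3*. The mean of 14 measured T cell receptor and coreceptor genes ran from 5.91 to 6.68 in the controls and was 7.49, 6.60, 9.34, 8.59, 7.67 and 7.22 in BPTF KD replicates 1 to 6. It was higher by 1.63 (exact permutation p = 0.0595, two-sided, 0.205 adjusted over 100 single values, 5 of 6 tumors above all controls). Replicate 3 also had the highest mean of 10 skeletal muscle genes, 11.91, and replicate 4 had 7.62, whereas the other 4 were at 5.57 to 6.02 and the controls at 5.64 to 5.78. Without replicate 3 the differences were 1.98 for *Cd274*, 1.42 for *Pdcd1lg2*, 1.21 for *Icos*, 2.38 for *Pdcd1*, 1.42 for *Ctla4* and 1.58 for *Fgl2*. Every BPTF KD tumor was also above every control in the list means of NK cell genes (by 1.09), dendritic cell genes (by 0.90), B cell genes (by 0.61) and lymph node stroma and follicle genes (by 0.48), and below every control in that of proliferation genes (-0.58). Their exact permutation p ran from 0.0119 to 0.0714, and from 0.108 to 0.23 after adjustment, so none passed. The part of these cell types, of T cell content or of muscle tissue in the members' differences was not tested.

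In 66cl4 tumors of BALB/c mice the differences were smaller and the replicates closer together. *Fgl2* passed the test, *Pdcd1* and *Cd274* were above all controls in every BPTF KD tumor without passing, and *Foxp3*, *Il2ra* and *Lag3* gave small negative differences that did not pass.

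*Fgl2* measured 9.59, 9.37 and 8.99 in the 66cl4 BALB/c controls. In BPTF KD tumors it measured 10.27 to 11.06, with a median of 10.67, and the lowest was clear of the highest control. It rose by 1.35 ± 0.20, or 2.56-fold (limma adjusted p = 0.0479). This call was lost on leaving out control replicate 2 or 3 or any of BPTF KD replicates 1 to 5 (adjusted p from 0.0574 to 0.181), and with quantile normalization, the RNA integrity covariate, all 36 tumors in 1 fit, all probe sets tested, the replicate block and the methods' t-test. The difference itself kept between 1.19 and 1.60 in these and all other settings tried.

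*Pdcd1* measured 4.44, 4.87 and 4.49 in these controls and 5.10 to 6.57, with a median of 5.90, in BPTF KD tumors. The groups were separate, and the difference was 1.21 ± 0.30 (limma adjusted p = 0.0731). *Cd274* measured 6.54, 6.93 and 6.88 in controls and 6.94 to 8.41, with a median of 7.64, in BPTF KD tumors. Its groups almost touched, with BPTF KD replicate 3 almost level with control replicate 2, and the difference was 0.82 ± 0.27 (limma adjusted p = 0.100).

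*Ctla4* was 6.41 to 6.71 in controls and 6.48 to 7.48 in BPTF KD tumors, 4 of which were above every control, and the difference was 0.47 ± 0.21 (limma adjusted p = 0.194). *Pdcd1lg2* was 4.84 to 5.02 and 4.76 to 6.04, with 5 above and 1 below every control, a difference of 0.37 ± 0.21. *Havcr2* lay mostly the other way, at 5.95 to 6.08 in controls and 5.30 to 6.16 in BPTF KD tumors, 5 of them below every control, a difference of -0.26 ± 0.16 (limma adjusted p = 0.332). *Icos*, *Lag3*, *Il2ra* and *Foxp3* differed by 0.13, -0.06, -0.13 and -0.02. For *Il2ra* a second probe set gave -0.39 ± 0.10, with all 6 BPTF KD tumors below all controls (limma adjusted p = 0.0661).

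Thus 3 members had every 66cl4 BALB/c BPTF KD tumor above every control, against 3.78% of genes, and 4 had an unadjusted p under 0.05, against 25.8% of genes. The 1 member past the adjusted test compares with 0.186% of genes, 14 higher and 9 lower. The median over the members was 0.25 and over all genes 0.03. The T cell list mean was 5.80 to 6.10 in controls and 6.17 to 6.94 in BPTF KD tumors, higher by 0.64 (exact permutation p = 0.0119, the smallest that 84 splits allow, adjusted 0.108, 6 of 6 tumors above all controls). The skeletal muscle list mean was 8.86 to 11.18 in controls and 6.73 to 11.45 in BPTF KD tumors. Every BPTF KD tumor was also above every control in the NK cell list mean, by 0.82 (exact permutation p = 0.0238, adjusted 0.149), and in the B cell list mean, by 0.36 (0.0119, adjusted 0.108), and 5 of 6 were in the dendritic cell list mean, by 0.26 (0.0595, adjusted 0.205). The part of these lists in the members' differences was not tested.

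The same knockdown comparison in NSG mice asked what remained without T, B and NK cells. In 67NR tumors 1 member passed, *Havcr2*, and it fell. It measured 7.79, 7.27 and 7.88 in the NSG controls and 5.68 to 6.82, with a median of 6.42, in BPTF KD tumors. Every BPTF KD tumor was below every control. The fall was 1.26 ± 0.24, or 2.39-fold (limma adjusted p = 0.0343). Without control replicate 1 or 3, or BPTF KD replicate 1, 2 or 3, it no longer passed (adjusted p from 0.0691 to 0.257), and the same held with all 36 tumors in 1 fit, the RNA integrity covariate and the methods' t-test. T cell and NK cell list means were 5.03 to 5.41 and 4.49 to 4.83 over these tumors. The mean of 13 macrophage genes, a cell type that carries TIM-3, was 10.49 to 11.05 in controls and 10.40 to 10.81 in BPTF KD tumors, lower by 0.27 (exact permutation p = 0.0952, adjusted 0.257, 2 of 6 below all controls). Other lists also differed, without passing. The epithelium list mean was higher in BPTF KD by 0.74 (exact permutation p = 0.0119, adjusted 0.108) and the proliferation list mean lower, at -0.36 (0.0476, adjusted 0.205), each in 6 of 6 tumors beyond all controls. The fibroblast list mean was higher by 0.80 and that of lymph node stroma and follicle lower, at -0.295 (both 0.0238, adjusted 0.149), each in 5 of 6 tumors. The part of macrophage or other cell content in the *Havcr2* difference was not tested.

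The other 9 members in 67NR NSG tumors differed by between -0.21 for *Cd274* and 0.41 for *Fgl2*, and none passed. *Cd274* was 5.61 to 5.89 in controls and 5.25 to 5.81 in BPTF KD tumors, and *Fgl2* was 6.48 to 7.96 and 6.38 to 8.38, so both overlapped. *Havcr2* was the 1 member with all BPTF KD tumors below all controls, against 3.10% of genes, and 0 members had all above, against 3.76%. It was also the 1 member with an unadjusted p under 0.05, against 14.1% of genes, and the 1 past the adjusted test, against 1.14%.

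In 66cl4 NSG tumors no member passed (limma) and 0% of genes did. The differences ran from -0.30 for *Fgl2* to 0.29 for *Cd274* and *Pdcd1*. At an unadjusted p under 0.05 there were 2 members, *Ctla4* and *Pdcd1*, against 7.68% of genes, and the methods' t-test called 0 after adjustment. *Ctla4* was 5.11 to 5.31 in controls and 5.25 to 5.70 in BPTF KD tumors, and *Pdcd1* was 3.70 to 3.94 and 3.88 to 4.38, both overlapping. No member had every BPTF KD tumor above every control, against 3.32% of genes. *Havcr2* differed here by 0.09, from 4.92 to 5.48 in controls and 4.85 to 5.73 in BPTF KD tumors.

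**Figure D2:**
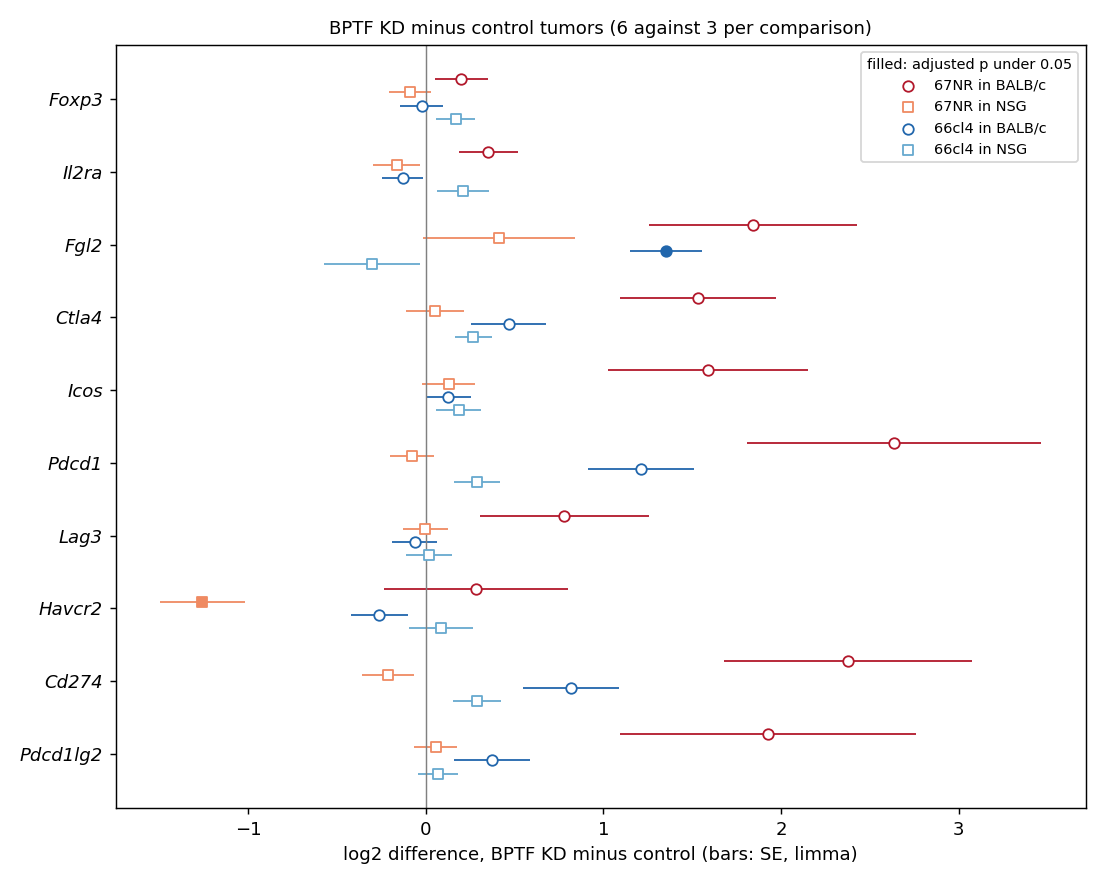
Log2 difference of BPTF KD minus control tumors (x axis) for the 10 genes (y axis) in the 4 combinations of line and host, 6 against 3 tumors each, with bars of 1 SE from limma and filled symbols where the adjusted p was under 0.05. The filled symbols are Fgl2 in 66cl4 BALB/c (1.35) and Havcr2 in 67NR NSG (-1.26), and the largest differences, in 67NR BALB/c, have the widest bars.

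The host comparison set tumors of BALB/c mice against tumors of NSG mice within a line and label. All 10 members passed as higher in BALB/c among 67NR BPTF KD tumors, 6 among 66cl4 BPTF KD tumors, 3 among 66cl4 controls and 0 among 67NR controls. There were 6 tumors per host for BPTF KD and 3 for controls, so these counts do not rest on equal numbers. These 4 comparisons draw on the same tumors as the knockdown comparisons, so they are not independent of them.

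Among 67NR BPTF KD tumors, *Pdcd1* was 3.70 to 4.21 in NSG and 5.29 to 9.12 in BALB/c mice, an increase of 3.77 ± 0.51, or 13.7-fold (limma adjusted p = 6.67e-05). The hosts were separate for this gene. *Cd274* was 5.25 to 5.81 in NSG and 7.74 to 11.09 in BALB/c, also separate, an increase of 3.56 ± 0.43, or 11.8-fold (limma adjusted p = 2.81e-05). *Fgl2* was 6.38 to 8.38 and 9.75 to 12.47, an increase of 3.48 ± 0.45 (limma adjusted p = 4.80e-05). The *Pdcd1* values in NSG mice, which lack T cells, were among the lowest of any member, and the values carry no detection call, so its fold rests on a level that may be background.

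*Ctla4* was 5.0 to 5.62 in NSG and 6.88 to 8.79 in BALB/c, and rose by 2.68 ± 0.28 (limma adjusted p = 7.75e-06, the lowest of the members). *Pdcd1lg2* was 4.28 to 4.75 and 5.55 to 9.66, and rose by 2.69 ± 0.51 (adjusted p = 0.00112). *Icos* was 5.06 to 5.56 and 6.75 to 9.47, and rose by 2.25 ± 0.35 (adjusted p = 2.55e-04). None of these 3 genes overlapped between hosts.

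*Lag3* was 5.33 to 5.82 in NSG and 5.84 to 7.99 in BALB/c, and rose by 1.23 ± 0.30 (limma adjusted p = 0.00621; 0.0548 by the methods' t-test). *Havcr2* was 5.68 to 6.82 and 6.46 to 9.23, with 1 BALB/c tumor inside the NSG range, and rose by 1.80 ± 0.35 (limma adjusted p = 0.00134). *Il2ra* was 4.63 to 5.19 and 5.23 to 5.88, and rose by 0.57 ± 0.12 (limma adjusted p = 0.00237). The smallest rise was that of *Foxp3*, 4.19 to 4.56 and 4.43 to 4.99 with overlap, by 0.35 ± 0.11, or 1.27-fold (limma adjusted p = 0.0243). It was lost with quantile normalization (0.23, adjusted p = 0.149) and on leaving out NSG BPTF KD replicate 1 or 4 or BALB/c BPTF KD replicate 2 or 3 (adjusted p from 0.0502 to 0.0606).

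The 10 of 10 members past the test compare with 22.2% of genes, and the 8 members with all BALB/c tumors above all NSG tumors with 5.01%. The median was 2.47 for the members and 0.04 for all genes. T cell list means were 5.03 to 5.41 in the NSG and 6.60 to 9.34 in the BALB/c tumors of this label, and all 14 measured genes of that list passed in the same direction, with a median of 2.48. The part of T cell content in the members' differences was not tested.

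Among 67NR controls the host differences were smaller, with 3 tumors per host. Their SEs come from the fit of all 18 67NR tumors, which share 1 estimate of the spread per gene. For *Cd274* the SD was 0.31 in BALB/c controls and 1.325 in BALB/c BPTF KD tumors, and the control difference was 0.97 ± 0.61. *Fgl2* was 7.96, 6.48 and 7.38 in NSG and 9.62, 9.45 and 8.90 in BALB/c, a difference of 2.05 ± 0.64 (limma adjusted p = 0.198). *Ctla4* was 5.10 to 5.47 and 6.18 to 6.90, a difference of 1.2 ± 0.40 (limma adjusted p = 0.248). The groups were separate for both genes. *Foxp3*, *Il2ra* and *Havcr2*, at 0.06, 0.06 and 0.25, were the members that overlapped. No member passed, against 0.549% of genes, and 2 had an unadjusted p under 0.05, against 11.0%. *Fgl2* and *Ctla4* passed with all 36 tumors in 1 fit (limma adjusted p = 0.0207 and 0.0361). For 7 members every BALB/c tumor was above every NSG tumor, against 20.0% of genes.

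Among 66cl4 controls 3 members passed, against 20.4% of genes. *Ctla4* was 5.26, 5.31 and 5.11 in NSG and 6.53, 6.41 and 6.71 in BALB/c, and rose by 1.32 ± 0.20, or 2.50-fold (limma adjusted p = 0.00106). *Icos* was 5.09, 5.16 and 5.53 and 6.24, 6.09 and 6.08, and rose by 0.88 ± 0.15 (limma adjusted p = 0.00214). *Havcr2* was 5.33, 5.48 and 4.92 and 5.99, 5.95 and 6.08, and rose by 0.76 ± 0.21 (limma adjusted p = 0.0193). The hosts were separate for these 3 genes. *Havcr2* was lost without NSG control replicate 1 or 3 or BALB/c control replicate 2 or 3 (adjusted p from 0.0508 to 0.0775), and all 3 were lost with the methods' t-test. *Fgl2* differed the other way, 9.38 to 10.61 in NSG and 8.99 to 9.59 in BALB/c, by -0.56 ± 0.30 (limma adjusted p = 0.186). *Il2ra* differed by 0.32 ± 0.155 without passing, but its second probe set was higher in BALB/c by 0.53 ± 0.13 (limma adjusted p = 0.0127). For 6 members every BALB/c control was above every NSG control, against 18.5% of genes. All 10 skeletal muscle genes also passed as higher in BALB/c here, with a median of 4.10. So did 10 of 14 T cell genes and 6 of 10 NK cell genes, with 1 NK cell gene lower. The part of muscle tissue or of these cells in the members' differences was not tested.

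Among 66cl4 BPTF KD tumors 6 members rose in BALB/c, against 10.7% of genes, and the same number had all BALB/c tumors above all NSG tumors, against 3.21%. *Pdcd1* was 3.88 to 4.38 in NSG and 5.10 to 6.57 in BALB/c, and rose by 1.69 ± 0.20, or 3.23-fold (limma adjusted p = 1.91e-05). *Ctla4* was 5.25 to 5.70 and 6.48 to 7.48, and rose by 1.52 ± 0.14 (adjusted p = 1.18e-06). *Cd274* was 6.12 to 6.61 and 6.94 to 8.41, and rose by 1.23 ± 0.19 (adjusted p = 2.69e-04). These 3 genes, the PD-1 receptor, its ligand and CTLA-4, were separate between hosts. *Fgl2* rose by 1.10 ± 0.21, *Icos* by 0.82 ± 0.10 and *Pdcd1lg2* by 0.80 ± 0.15, with limma adjusted p of 0.00205, 3.95e-05 and 0.00139. With all 36 tumors in 1 fit *Fgl2*, *Icos* and *Pdcd1lg2* no longer passed (adjusted p from 0.0779 to 0.294). *Foxp3* and *Il2ra* did not differ beyond their spread, at -0.002 ± 0.09 and -0.02 ± 0.11, and *Lag3* and *Havcr2* differed by 0.19 and 0.41 without passing. All 10 skeletal muscle genes passed as higher in BALB/c here too, with a median of 4.34, as did 11 of 14 T cell genes and 8 of 10 NK cell genes. The part of muscle tissue or of these cells in the members' differences was not tested.

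**Figure D3:**
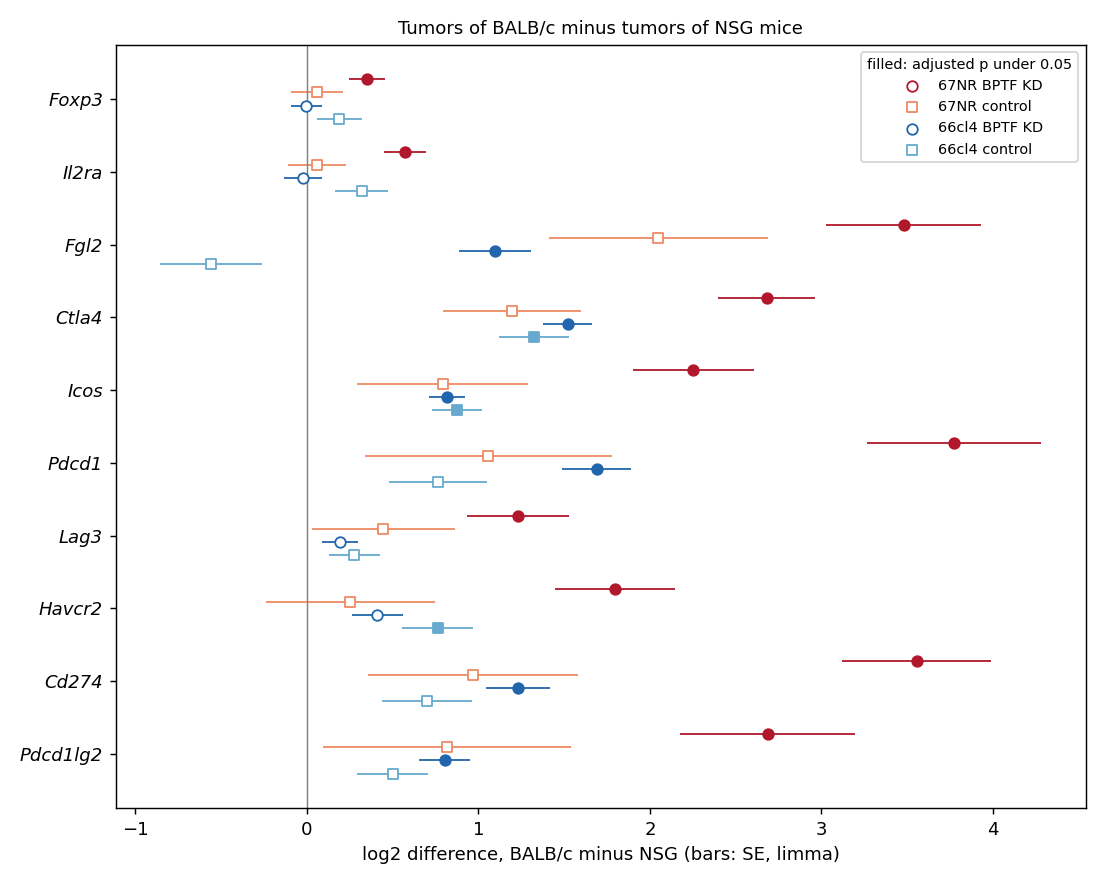
Log2 difference of BALB/c minus NSG tumors (x axis) for the 10 genes (y axis), by line and label, with bars of 1 SE from limma and filled symbols where the adjusted p was under 0.05. All 10 genes are filled for 67NR BPTF KD, where Pdcd1 is farthest right at 3.77, and none for 67NR control.

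Whether the knockdown difference itself depended on the host was tested as an interaction. In 67NR the knockdown difference was larger in BALB/c than in NSG by 2.59 ± 0.75 for *Cd274* (unadjusted p = 0.00308, limma adjusted 0.466) and by 2.72 ± 0.88 for *Pdcd1* (adjusted 0.483). For *Havcr2* the BALB/c difference minus the NSG difference was 1.54 ± 0.60 (limma adjusted p = 0.607). That gene differed by 0.28 in BALB/c and by -1.26 in NSG, so its larger difference was the fall in NSG. At an unadjusted p under 0.05 there were 7 members, against 6.89% of genes. After adjustment no member and 0% of genes passed. In 66cl4 the interaction was 1.66 ± 0.36 for *Fgl2* (unadjusted p = 2.54e-04, limma adjusted 0.263) and 0.92 for *Pdcd1*, the 2 members with an unadjusted p under 0.05, against 11.9% of genes, and again 0% of genes passed. With array weights, however, 7 members passed in 67NR, among 1798 genes, and 1 in 66cl4, among 771 genes.

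Between the lines, *Havcr2* was higher in 67NR than in 66cl4 in every combination of host and label. In NSG controls it was 7.27 to 7.88 in 67NR and 4.92 to 5.48 in 66cl4, higher by 2.40 ± 0.26, or 5.29-fold (limma adjusted p = 2.16e-06). In NSG BPTF KD tumors it was 5.68 to 6.82 and 4.85 to 5.73, with 5 of 6 tumors above every 66cl4 tumor, higher by 1.06 ± 0.18 (limma adjusted p = 1.35e-04). In BALB/c it was higher by 1.89 ± 0.47 among controls (adjusted p = 0.011, and 0.0578 without 67NR control replicate 3) and by 2.44 ± 0.33 among BPTF KD tumors (adjusted p = 6.29e-05). The macrophage list mean was 10.40 to 11.78 in 67NR and 11.47 to 12.02 in 66cl4 tumors over both hosts and labels, with overlap. The dendritic cell list mean was 5.97 to 7.81 in 67NR and 5.82 to 6.37 in 66cl4 tumors of BALB/c mice. In NSG mice it was 5.28 to 5.80 and 5.73 to 6.11. The part of either cell type in the *Havcr2* difference between lines was not tested. The difference of the knockdown effect between lines in NSG was -1.35 ± 0.32 for *Havcr2* (unadjusted p = 5.10e-04, limma adjusted 0.0514).

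*Fgl2* was ordered the opposite way in NSG mice. Controls were at 6.48 to 7.96 in 67NR and 9.38 to 10.61 in 66cl4, lower in 67NR by 6.08-fold (-2.60 ± 0.45, limma adjusted p = 2.47e-04), and BPTF KD tumors were lower by 3.70-fold (-1.89 ± 0.32, limma adjusted p = 9.84e-05). In BALB/c controls the lines overlapped, at 8.90 to 9.62 and 8.99 to 9.59. *Cd274* was 5.25 to 5.81 in 67NR and 6.12 to 6.61 in 66cl4 NSG BPTF KD tumors, with no overlap, and lower in 67NR by 0.80 ± 0.12 on this scale (limma adjusted p = 2.36e-05). *Il2ra* was lower there by 0.42 ± 0.12 (limma adjusted p = 0.00668), but its second probe set gave -0.09 (adjusted p = 0.443).

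In BALB/c BPTF KD tumors 7 members were higher in 67NR than in 66cl4. Besides *Havcr2*, *Pdcd1* was higher by 1.90 ± 0.54 (limma adjusted p = 0.0197), *Pdcd1lg2* by 1.82 ± 0.52 (adjusted p = 0.0206), *Cd274* by 1.52 ± 0.46 (adjusted p = 0.0262) and *Icos* by 1.30 ± 0.35 (adjusted p = 0.0142). *Lag3* was higher by 1.11 ± 0.30 and *Ctla4* by 0.98 ± 0.30 (adjusted p = 0.014 and 0.0277). *Havcr2* and *Icos* had all 6 67NR tumors above all 66cl4 tumors, and the others overlapped. Without 67NR BPTF KD replicate 4, 3 members passed, and with the methods' t-test 1. The T cell list mean was 6.60 to 9.34 in these 67NR tumors and 6.17 to 6.94 in these 66cl4 tumors, and 10 of its 14 genes were higher in 67NR.

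Against the background, 1 member passed between lines among BALB/c controls (14.0% of genes), 7 among BALB/c BPTF KD tumors (19.9%), 2 among NSG controls (34.1%) and 4 among NSG BPTF KD tumors (45.3%). For the difference of the knockdown effect between lines, 0 members passed in BALB/c (0% of genes) and 0 in NSG (0.960%). At an unadjusted p under 0.05 there were 2 members in BALB/c, *Icos* and *Il2ra*, against 9.64% of genes, and 2 in NSG, *Havcr2* and *Cd274*, against 10.1%.

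Because most members are T cell genes, all but *Foxp3* and *Il2ra* are also given relative to the same tumor's T cell list mean. In 66cl4 BALB/c tumors, *Fgl2* minus that mean was higher in BPTF KD by 0.72, in 6 of 6 tumors above all controls, whereas *Icos* and *Havcr2* minus it were lower by 0.51 and 0.90 in 6 of 6 tumors. Each of these had an exact permutation p of 0.0119, the smallest possible, and 0.108 after adjustment over the 100 single values, so none passed. *Icos* and *Havcr2* themselves differed by 0.13 and -0.26, while the list mean rose by 0.64 with 6 of 6 tumors above all controls. Their separation here thus largely restates that of the list mean. *Pdcd1* minus the mean was higher by 0.57 (exact permutation p = 0.0595, adjusted 0.205) and *Cd274* by 0.18 (0.44, adjusted 0.657). *Lag3* minus it differed by -0.70 (0.0238, adjusted 0.149), with *Lag3* itself at -0.06. *Pdcd1lg2* and *Ctla4* differed by -0.27 and -0.17 relative to it (0.226 and 0.381). *Foxp3* and *Il2ra* are not given this way in either line, since their differences would restate the list mean. In BALB/c they themselves differed by -0.02 and -0.13 in 66cl4 and by 0.20 and 0.35 in 67NR.

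In 67NR BALB/c tumors *Lag3* minus the T cell mean was lower by 0.85 in 6 of 6 tumors (exact permutation p = 0.0119, adjusted 0.108). *Lag3* itself was higher by 0.78 and the list mean by 1.63, so this value reflects the larger rise of the list mean. *Cd274* minus the mean was higher by 0.74 and *Pdcd1* by 1.01, each with 5 of 6 tumors above all controls (0.0476 and 0.0833, adjusted 0.205 and 0.245). *Ctla4* and *Icos* differed by -0.10 and -0.04 relative to it (0.845 and 0.821).

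**Figure D4:**
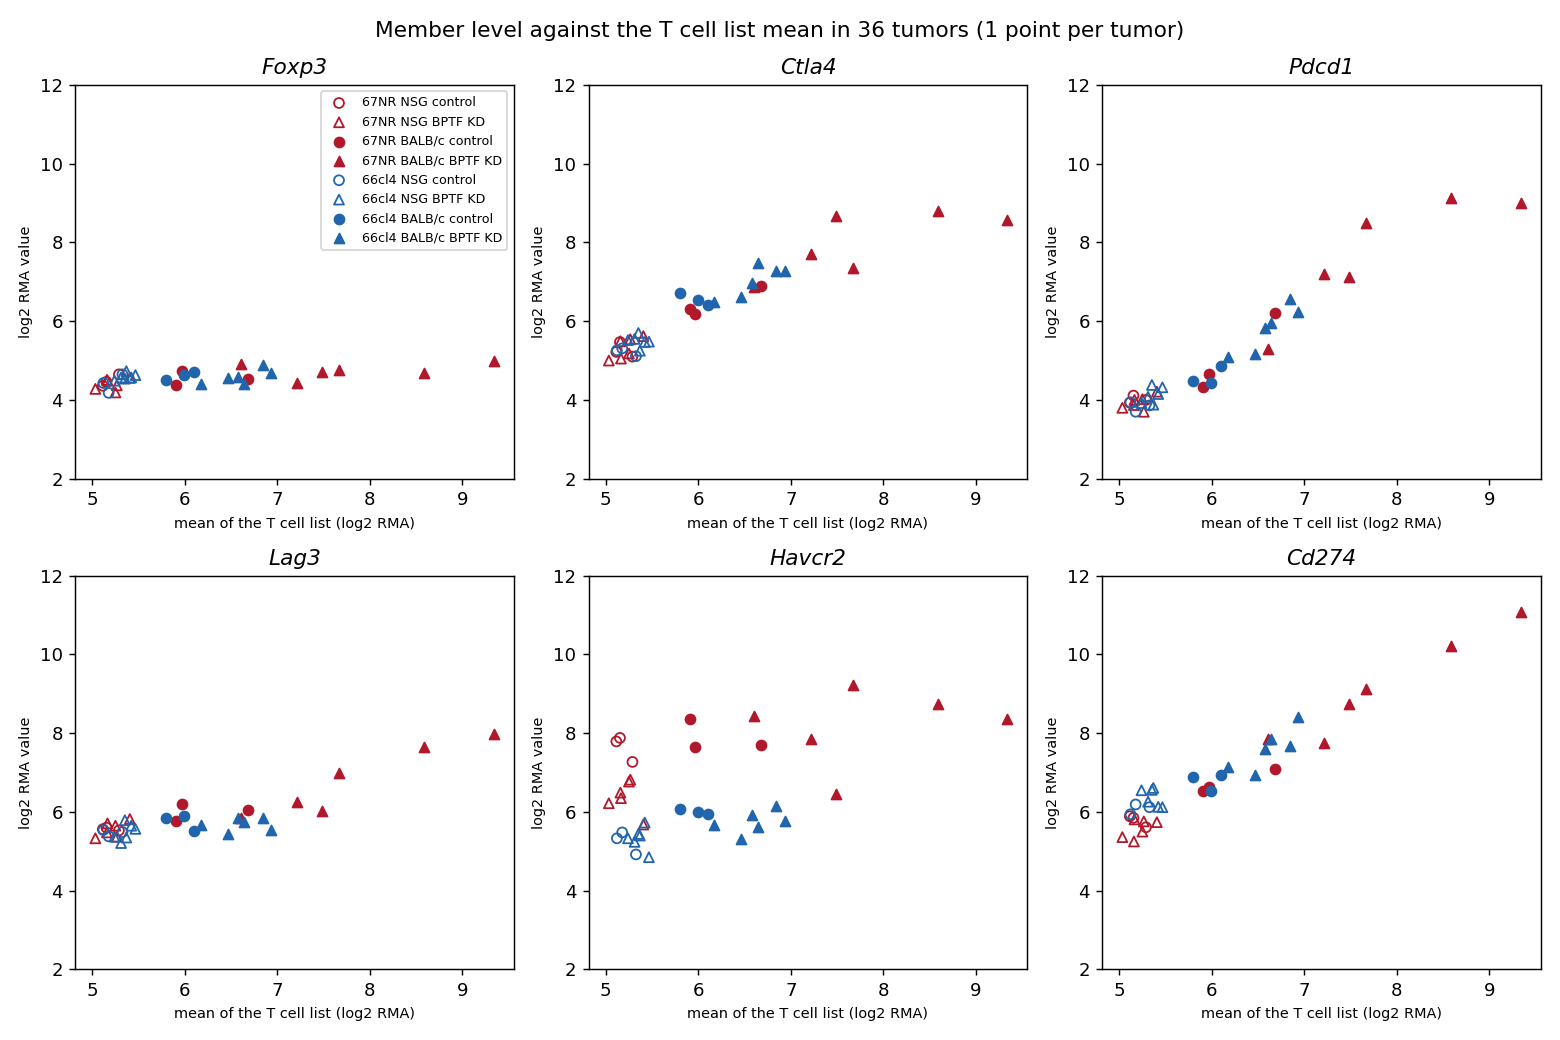
Log2 RMA value of 6 of the genes (y axes, the same scale in each panel) against the mean of 14 T cell genes in the same tumor (x axes, log2 RMA), with 1 point per tumor; red is 67NR, blue 66cl4, open NSG, filled BALB/c, circles control and triangles BPTF KD. NSG tumors sit at T cell means of 5.03 to 5.47, and from there Pdcd1 and Cd274 reach 9.12 and 11.09 in the BALB/c tumors while Foxp3 stays between 4.18 and 4.99.

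The other genes of the pathway were read as lists. Of 20 regulatory T cell associated genes other than the members, 19 were measured. Their mean was 6.33 to 6.53 in NSG tumors, 6.76 to 6.87 in 67NR BALB/c controls and 7.03 to 7.72 in 67NR BALB/c BPTF KD tumors. In 66cl4 BALB/c it was 6.73 to 6.82 in controls and 6.73 to 7.09 in BPTF KD tumors, with overlap. None passed between BPTF KD and control in BALB/c mice (limma), with medians of 0.43 in 67NR and 0.27 in 66cl4. At an unadjusted p under 0.05 there were 5 genes in 67NR, against 7.75% of all genes, and 6 in 66cl4, against 25.8%, so the 66cl4 share was near the background. In 67NR NSG tumors 1 fell, *Socs2*, by 1.61 (limma adjusted p = 0.0287), against 1.14% of all genes called. Between hosts 9 were higher and 1 lower in BALB/c among 67NR BPTF KD tumors, 6 higher and 1 lower among 66cl4 controls and 7 higher among 66cl4 BPTF KD tumors, against 22.2%, 20.4% and 10.7% of all genes called in either direction. These shares are also those behind the host counts of the lists that follow. *Tnfrsf18*, the gene of GITR, was among them, at 3.13 (adjusted p = 2.61e-06), 1.29 (0.00513) and 2.14 (2.74e-07), as was *Il2rb*, the IL-2 receptor beta chain that NK and T cells share, at 3.05, 0.92 and 1.18. *Tnfrsf18* and *Il2rb* are also expressed by activated T cells and NK cells outside the regulatory lineage.

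Of 11 measured ligands and counter-receptors of the members, 1 in 67NR BALB/c, 4 in 66cl4 BALB/c, 2 in 67NR NSG and 0 in 66cl4 NSG had an unadjusted p under 0.05 between BPTF KD and control, against 7.75%, 25.8%, 14.1% and 7.68% of all genes, and none passed after adjustment except *Cd80*, a ligand of CTLA-4 and CD28, which fell by 1.57 ± 0.32 in 67NR NSG tumors (limma adjusted p = 0.0452), the comparison in which *Havcr2* fell. The share of all genes called in 67NR NSG was 1.14%. Between hosts 5 were higher in BALB/c among 67NR BPTF KD tumors, including *Cd80* by 2.32 (limma adjusted p = 1.31e-04), *Cd28* by 2.18 and *Cd86* by 1.46. In NSG controls *Cd80* was higher in 67NR than in 66cl4 by 1.27 and *Cd86* lower by 1.45 (adjusted p = 0.00289 and 0.00187), so the CTLA-4 ligands differed between the lines in opposite directions.

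Of 11 interferon gamma pathway genes, *Cxcl9* rose with BPTF KD in 66cl4 BALB/c tumors by 2.29 (limma adjusted p = 0.0331), against 0.186% of all genes called. In 67NR NSG tumors *Irf1* rose by 0.68 and *Ifng* fell by 0.71 (limma adjusted p = 0.0278 and 0.0325), against 1.14% of all genes called. NSG mice lack T and NK cells and the values carry no detection call, so the *Ifng* difference may lie in background. None passed in 67NR BALB/c, where the median was 1.34 and 7 had an unadjusted p under 0.05, against 7.75% of all genes. At that threshold there were 7 in 66cl4 BALB/c, 3 in 67NR NSG and 1 in 66cl4 NSG, against 25.8%, 14.1% and 7.68%. Between hosts, 9 were higher in BALB/c among 67NR BPTF KD tumors and 7 among 66cl4 BPTF KD tumors, and *Cxcl9*, an interferon gamma induced chemokine that attracts T and NK cells, differed by 6.97 (adjusted p = 5.67e-08) and 5.90 (adjusted p = 5.85e-11). The list mean was 7.595 to 8.27 in NSG tumors, 8.59 to 9.05 in BALB/c controls and 9.10 to 11.04 in BALB/c BPTF KD tumors.

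Of 18 other inhibitory and costimulatory genes, 1 passed with BPTF KD, *Cd200* in 67NR NSG tumors, against 1.14% of all genes. It rose by 1.03 (limma adjusted p = 0.0183). At an unadjusted p under 0.05 there were 5 in each line in BALB/c, against 7.75% of all genes in 67NR and 25.8% in 66cl4. In NSG mice there were 3 in 67NR and 7 in 66cl4, against 14.1% and 7.68%. Between hosts 9 were higher and 4 lower in BALB/c among 67NR BPTF KD tumors, and the smallest p values were those of *Cd160* (1.85), the NK and T cell receptor gene *Cd244a* (2.59) and *Tnfrsf14* (1.15), which encodes HVEM, a ligand of BTLA and CD160. Of 14 transcription factors of T cell activation and exhaustion, 0 passed with BPTF KD in any line or host (limma; 4 at an unadjusted p under 0.05 in 67NR BALB/c, 3 in 66cl4 BALB/c, 1 in 67NR NSG and 3 in 66cl4 NSG, beside the same background shares), and 7 were higher in BALB/c among 67NR BPTF KD tumors, including *Tbx21* by 2.72, *Eomes* by 1.73 and *Tox* by 2.29. Of 11 genes of IL-2 and its signalling, 0 passed with BPTF KD (limma; at an unadjusted p under 0.05, 2 in 67NR BALB/c and 6 in 66cl4 BALB/c, against 7.75% and 25.8% of all genes, and 1 in each line in NSG), with medians of 0.26 in both lines in BALB/c.

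By the deviation of each tumor from its group mean, the genes most like each member over 36 tumors were as follows, as a description in which tumors of a group share line, host and label. *Pdcd1* was most like *Cd3g* (r = 0.89), *Cd8b1* (0.883) and *Sh2d2a* (0.883). Without the 6 67NR BALB/c BPTF KD tumors these were 0.878, 0.844 and 0.685 over 30. *Fgl2* was most like *Cfb* (0.916, and 0.874 without those tumors), *AW112010* (0.795 without them) and *Fpr2* (0.804). *Cd274* was most like *Tap1* (0.923 and 0.699), *Crtam* (0.904 and 0.555) and *Cd8a* (0.903 and 0.536). *Ctla4* was most like *Sh2d1a* (0.881 and 0.688), *Gimap7* (0.681 without those tumors) and *Cd160* (0.651).

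Several likenesses rested on the 6 67NR BALB/c BPTF KD tumors. *Pdcd1lg2* was most like *Cd8a* (0.917, and 0.69 without them), *Cd96* (0.914 and 0.546) and *Cst7* (0.902 and 0.276). *Lag3* was most like *Gldc* (0.868, but 0.197 without them), *Pdcd1lg2* (0.858 and 0.062) and *Tg* (0.853 and 0.083). *Icos* was most like *Ccrl2* (0.902 and 0.589), *Tor3a* (0.357 without them) and *Pdcd1lg2* (0.367), and *Havcr2* most like *Arpc4* (0.824 and 0.637), *Cyb5r1* (0.555) and *Sharpin* (0.566). For *Foxp3* the most alike genes were *Adad1* (0.599), *Klhl1* (0.581) and *Pdcl2* (0.56). For *Il2ra* they were *Il4* (0.661), *Six6* (0.623) and *Tmem38b* (0.608). Among the members themselves the closest pairs were *Icos* with *Pdcd1lg2* (0.89), *Cd274* with *Pdcd1lg2* (0.867) and *Lag3* with *Pdcd1lg2* (0.858). Without those 6 tumors these were 0.367, 0.61 and 0.062.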

How the data were processed

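The authors deposited log2 expression values of 36 arrays, and the submitters' processing notes name RMA, without a version; further upstream steps are not given in the sources used here. RNA was labelled from 500 ng. RMA normalizes arrays to each other, so differences are relative. Of 22690 probe sets, 20393 had 1 gene symbol in the platform annotation, 691 had several and 1606 none, and names were updated by Entrez ID for 20364. Each gene was read from its brightest single-symbol probe set (12394 genes). No array was left out, and the number of tumors limits the precision.

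Groups came from cell line, strain and title. limma 3.58.1 (R 4.3.3) was fitted on 9 tumors for each knockdown comparison and on 18 for host, line and interaction comparisons, 16 in all, with Benjamini-Hochberg adjustment over all genes at 0.05. Exact permutation tests over 84 splits, two-sided, served single values. All 10 members are named, with the 3 genes most alike each, at most 4 per list by p, and *Bptf*. Members and lists were chosen with earlier results of these data known. The alternatives comprised 10 other settings (samples in the fit, the methods' t-test, dim genes left out, quantile normalization, array medians, probe set of a gene, all probe sets, replicate block, array weights, and RNA integrity as the 3' minus 5' difference of actin and Gapdh control probe sets) and leaving out each tumor. The fits were tested on simulated data. Tables and figures used Python 3.11.15, numpy 2.4.6, pandas 2.3.3 and matplotlib 3.10.9. Promoters came from RefSeq (GRCm38.p6).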

Additional observations from a re-analysis of the deposited data

How the results depend on the processing

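Counts are of members, out of 10, past the threshold, and those given by setting moved by over 1.5 times unless marked as smaller shifts. No value changed sign among those past it. For single members in the knockdown and host comparisons, 696 of 768 values under other settings and 1019 of 1080 on leaving out 1 tumor kept their direction and side of the threshold. With all 36 tumors in 1 fit the counts became 6 (67NR BALB/c knockdown, otherwise 0), 0 (66cl4 BALB/c and 67NR NSG knockdown, otherwise 1 each), 2 (host, 67NR control, otherwise 0), 1 (host, 66cl4 control, otherwise 3) and 3 (host, 66cl4 BPTF KD, otherwise 6). Genes called in 67NR BALB/c rose from 0 to 607 in that fit and to 1122 with array weights. Array weights gave 6, 3 and 2 for knockdown in 67NR BALB/c, 66cl4 BALB/c and 66cl4 NSG, 4 and 10 for host in 67NR and 66cl4 controls, 2 and 4 for line in BALB/c and NSG controls, and 7, 1, 7 and 3 for the interactions (host 67NR, host 66cl4, line BALB/c, line NSG). The methods' t-test gave 0 for knockdown in 66cl4 BALB/c and 67NR NSG, 0 for host in 66cl4 controls and 1 for line in BALB/c BPTF KD tumors. The RNA integrity covariate gave 0, 0 and 1 (knockdown 66cl4 BALB/c and 67NR NSG, host 67NR control). Quantile normalization and all probe sets tested each gave 0 for knockdown in 66cl4 BALB/c. Leaving out dim genes gave 6 for host in 67NR BPTF KD, since 4 members were then not tested, and 1 for the line interaction in NSG, as did subtracting array medians. Smaller shifts included 4 (host 66cl4 BPTF KD, otherwise 6), 5 and 3 (line BALB/c and NSG BPTF KD, otherwise 7 and 4) without dim genes, 7 (host 66cl4 BPTF KD) with RNA integrity and 3 (line NSG BPTF KD) with all 36 tumors in 1 fit. The causes of the other shifts were not tested. On leaving out each tumor the counts were 0 to 2 (knockdown 66cl4 BALB/c), 0 to 1 (knockdown 67NR NSG), 9 to 10 (host 67NR BPTF KD), 2 to 5 (host 66cl4 control), 6 to 7 (host 66cl4 BPTF KD), 0 to 1 (line BALB/c control), 3 to 7 (line BALB/c BPTF KD) and 0 to 1 (line interaction NSG).

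Replicate numbers did not pair the tumors: deviations of same-numbered tumors correlated from -0.451 to 0.268. With the replicate block, 0 members passed for knockdown in 66cl4 BALB/c (*Fgl2* 1.48, limma adjusted p = 0.105) and 2 in 67NR NSG.

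Dim probe sets limit what *Foxp3*, *Il2ra*, *Pdcd1* and *Pdcd1lg2* can show.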
